A study of Rattus norvegicus with 10 samples.

Results

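Muscle fibres fire because their surface membrane, the sarcolemma, holds ion gradients and opens channels along them. The genes described here are 6 that serve these steps in skeletal muscle, and all 6 of 6 were found on the array by gene symbol, each with 1 probe set, among 15037 genes with a symbol and 23188 probe sets tested. Scn4a encodes the pore of the skeletal muscle sodium channel, which opens when the membrane is depolarised and carries the upstroke of the action potential. Scn4b encodes an auxiliary beta subunit of voltage-gated sodium channels. Clcn1 encodes the skeletal muscle chloride channel, which carries most of the resting membrane conductance and steadies the membrane after each action potential, so that its loss in inherited disease causes myotonia. The sodium pump returns sodium and potassium across the membrane at the cost of ATP. Atp1b1 and Atp1b2 encode alternative beta subunits, which the pump needs to reach the cell surface. Fxyd1 encodes phospholemman, a small membrane protein that sets the sodium affinity of the pump and is a target of protein kinases. In rat muscle the Atp1b1 product is richer in slow oxidative fibres and the Atp1b2 product in fast glycolytic fibres.

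Femoral skeletal muscle was taken from wild-type male Wistar rats, an outbred laboratory strain, that weighed under 200 g and were killed by cervical dislocation. The control group was sampled at once (0 h of postmortem interval, PMI; n = 5), and the other group stayed for 48 h at 25 °C in a climatic chamber before sampling (n = 5). Each rat had its own Clariom S Rat array, on which several short probes to a transcript form a probe set and are summarised as 1 value. Values are on the log2 scale as made by the authors with RMA, so a step of 1 doubles the signal, and the levels of different genes are not comparable with each other.

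RMA sets each array relative to the others. The array medians lay between 5.17 and 5.21 (log2) at both times, whereas the 99th percentile was 10.64 to 10.72 at 0 h and 9.82 to 10.02 at 48 h. The 23 probe sets designed to read background had larger means at 48 h, the increase being 0.28 at the least and 1.80 at the most. Pearson's correlation over all probe sets was 0.978 to 0.988 within 0 h and 0.901 to 0.940 within 48 h. At 0 h the median of 9 muscle fibre markers was 11.02 to 11.44, above the 99th percentile of all probe sets. In the comparison that follows, a gene fell or rose when its change was at least 2-fold with a Benjamini-Hochberg adjusted p under 0.05 from limma over all 23188 probe sets (12.1% fell and 4.35% rose, together 16.5%). In bulk muscle, fewer surviving fibres, less RNA per fibre and more degraded RNA cannot be told apart. The paper checked RNA integrity on gels at 0 h and left this check out at 48 h, where it expected marked degradation.

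The promoters of Clcn1 and Scn4a are shown because these genes differed in their change at 48 h, as described further on. Each sequence runs from 250 bases before to 50 bases after the RefSeq start (build GRCr8). Capitals mark E-boxes, the CANNTG motif bound by myogenic factors such as MyoD, searched on both strands, and the only longer run of capitals is a match to the MEF2 motif.
Clcn1, chr4:72138928-72139227, + strand: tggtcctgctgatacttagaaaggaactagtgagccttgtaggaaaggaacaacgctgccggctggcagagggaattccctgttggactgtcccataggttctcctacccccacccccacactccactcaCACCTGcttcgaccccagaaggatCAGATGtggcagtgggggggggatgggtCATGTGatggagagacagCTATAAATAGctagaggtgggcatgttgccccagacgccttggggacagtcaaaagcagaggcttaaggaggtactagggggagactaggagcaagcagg
Scn4a, chr10:91796275-91796574, - strand: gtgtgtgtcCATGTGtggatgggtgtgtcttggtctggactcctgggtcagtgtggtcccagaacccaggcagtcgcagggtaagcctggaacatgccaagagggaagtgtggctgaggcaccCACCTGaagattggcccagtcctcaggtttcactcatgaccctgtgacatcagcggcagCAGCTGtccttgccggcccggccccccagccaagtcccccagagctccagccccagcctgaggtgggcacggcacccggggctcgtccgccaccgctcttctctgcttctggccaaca
Both windows hold 3 E-boxes. The MEF2 match of Clcn1 begins 50 bases before the start, and the Scn4a window has none. RefSeq windows were found for 5 of the 6 genes, the exception being Atp1b1. Those of Scn4b, Atp1b2 and Fxyd1 hold 2, 1 and 5 E-boxes and no MEF2 match. Of all 33469 rat promoter windows of this length, 72.1% hold at least 1 E-box, 16.6% at least 3 and 1.77% at least 5, and 1.87% hold a MEF2 match. A match in these letters is not a measured binding site, and the arrays did not measure promoter activity.

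Of the 6 genes, 1 fell (Clcn1), none rose and 5 did not meet both limits, beside 12.1% of all probe sets that fell. An adjusted p under 0.05 at any fold was reached by 3 of the 6, beside 44.9% of all probe sets. All rats at 48 h lay below all rats at 0 h in 3 of the 6 genes (Scn4b, Clcn1 and Fxyd1), beside 17.7% of all probe sets (31.1% in either direction). With 6 genes, nothing particular to them is read from these counts. The median change of the 6 genes was −0.81 (log2), and that of all probe sets was 0.10. All 6 genes were among the 11594 probe sets above the median signal level. When only those were tested, their median change was −0.26, and 2629 of them fell.

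**Figure D1:**
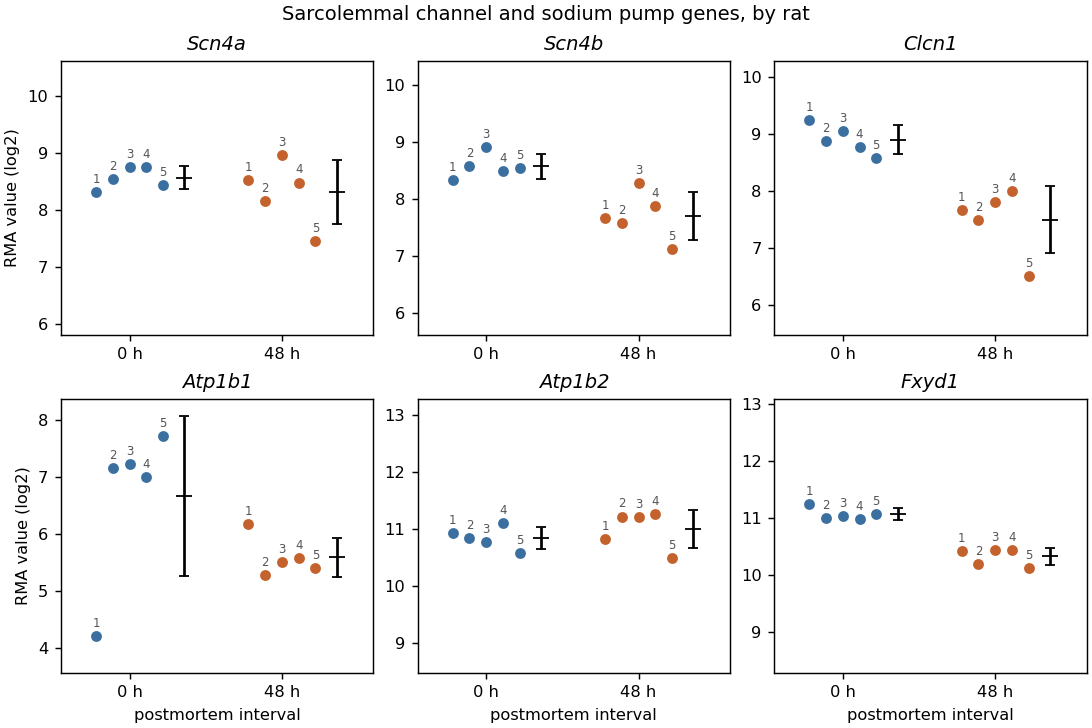
RMA values (log2, vertical axis) of the 6 genes in the 5 rats at 0 h (blue) and the 5 rats at 48 h (orange). Numbers are rat numbers within a group, which do not pair rats across groups, and black bars are the mean ± SD. Each panel spans the same height. Clcn1, Scn4b and Fxyd1 are separated between the times, Scn4a and Atp1b2 overlap, and Atp1b1 has 1 rat at 0 h (4.21) far below the other rats.

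The sodium channel pore gene Scn4a did not pass the test in either direction. It was 8.32, 8.56, 8.77, 8.77 and 8.44 (log2) in rats 1 to 5 at 0 h, and 8.53, 8.16, 8.97, 8.49 and 7.47 in rats 1 to 5 at 48 h. The groups overlapped, with the highest and the lowest of all 10 values both at 48 h. The means were 8.57 ± 0.201 (SD, n = 5) and 8.32 ± 0.558 (SD, n = 5), a change of −0.25 (standard error, SE, 0.23, adjusted p = 0.392 from limma) and a 95% interval of −0.73 to 0.24. This sign was not stable, since the change was 0.34 after cyclic loess normalization (adjusted p = 0.292). With arrays centred on olfactory receptor probe sets it was −0.77 (adjusted p = 0.00951 from limma), under the fold limit. With arrays centred on Bacillus control probe sets it was −2.32 (adjusted p = 2.36e-10 from limma), past both limits.

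The auxiliary subunit gene lay lower at 48 h in every rat. Scn4b was 8.34, 8.59, 8.92, 8.49 and 8.55 at 0 h and 7.67, 7.58, 8.28, 7.88 and 7.13 at 48 h (log2, rats 1 to 5 of each group). The groups did not overlap, although rat 3 at 48 h came close to the lowest rat at 0 h. The change was −0.87 (SE 0.20), 1.83-fold lower (adjusted p = 0.00213 from limma), so it passed the p limit and not the fold limit. Without rat 3 at 48 h it was −1.02 (adjusted p = 0.000514), past both limits, and after cyclic loess it was −0.30 (adjusted p = 0.285).

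Clcn1 fell, with the largest change and the smallest adjusted p of the 6 genes. It was 9.25, 8.88, 9.05, 8.77 and 8.59 at 0 h and 7.67, 7.50, 7.82, 8.01 and 6.52 at 48 h (log2, rats 1 to 5 of each group). All rats at 48 h lay below all rats at 0 h, and rat 5 at 48 h was the lowest. The mean passed from 8.91 ± 0.254 to 7.50 ± 0.584 (SD, n = 5 each), a change of −1.40 (SE 0.24), or 2.65-fold lower (adjusted p = 0.000165 from limma). On the array, 7.25% of all probe sets had a lower change than Clcn1. Leaving out any single rat gave −1.53 to −1.16 and kept the call, but after cyclic loess the change was −0.83 (adjusted p = 0.0181), under the fold limit.

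Neither beta subunit gene of the sodium pump met both limits. Atp1b2 was 10.93, 10.84, 10.77, 11.10 and 10.58 at 0 h and 10.83, 11.22, 11.21, 11.26 and 10.50 at 48 h (log2, rats 1 to 5 of each group). The groups overlapped, with 3 rats at 48 h above all rats at 0 h and 1 rat below them. The change was 0.16 (SE 0.18, adjusted p = 0.500 from limma) and a 95% interval of −0.23 to 0.54, which leaves out a 2-fold change in either direction on this scaling. The sign followed the scaling, at 0.83 after cyclic loess (adjusted p = 0.00212) and −0.36 with arrays centred on olfactory receptor probe sets (adjusted p = 0.130).

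Atp1b1 was 4.21, 7.16, 7.23, 7.01 and 7.73 at 0 h and 6.18, 5.29, 5.51, 5.58 and 5.40 at 48 h (log2, rats 1 to 5 of each group). Rat 1 at 0 h was the lowest of all 10 rats, while the other rats at 0 h lay above all rats at 48 h. With all rats, the change was −1.08 (SE 0.46, adjusted p = 0.0680 from limma). Without rat 1 at 0 h it was −1.69 (adjusted p = 1.39e-05), which met both limits.

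The same rat was low in markers of slow oxidative fibres. The median of 10 slow-fibre markers, such as Myh7 and Tnnt1, was 5.73, 10.09, 7.10, 9.78 and 10.87 at 0 h (log2, rats 1 to 5). Mb, the oxygen store myoglobin, was 9.63, 11.26, 11.29, 11.03 and 11.62 in these rats. Rat 1 was thus the lowest in Atp1b1, in Mb and in the slow-fibre median, whereas rat 3 was low in the slow-fibre median and not in Atp1b1 or Mb. Rat 1 also had the highest median of the adipocyte markers at 0 h (6.84, against 4.21 to 5.89 in the other rats), with Adipoq at 8.52, against 3.58 to 6.45. At 48 h the slow-fibre median was 6.02 to 6.69 and Mb was 7.55 to 9.65. The part of fibre makeup or fat in the Atp1b1 values was not tested.

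**Figure D2:**
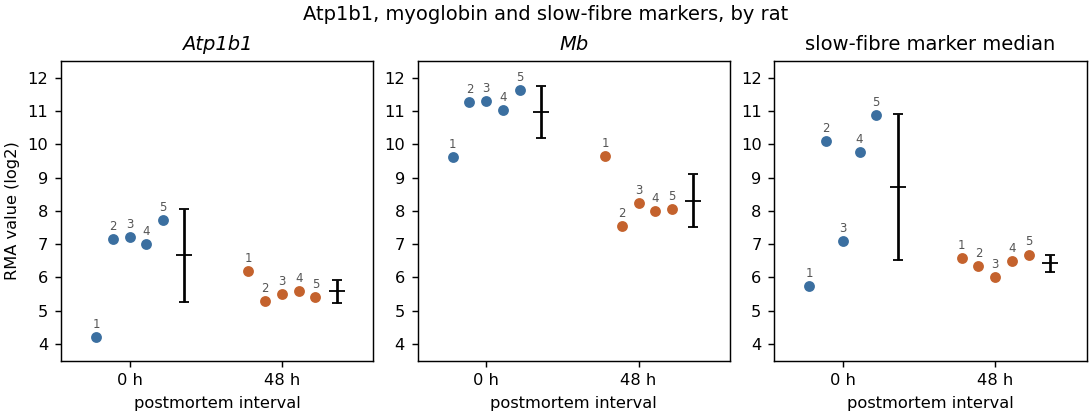
RMA values (log2, vertical axis) of Atp1b1, of myoglobin (Mb) and the median of 10 slow-fibre markers in each rat at 0 h (blue) and 48 h (orange). Numbers are rat numbers within a group and black bars are the mean ± SD (n = 5). Rat 1 at 0 h is the lowest rat of its group in all panels, at 4.21, 9.63 and 5.73, and rat 3 at 0 h is low only in the slow-fibre median (7.10).

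The pump regulator Fxyd1 had the tightest values of the 6 genes. It was 11.24, 11.00, 11.03, 10.97 and 11.06 at 0 h and 10.42, 10.19, 10.44, 10.43 and 10.12 at 48 h (log2, rats 1 to 5 of each group). The groups did not overlap, and the spread within each was 0.274 and 0.316 from lowest to highest. The change was −0.74 (SE 0.15), or 1.67-fold lower (adjusted p = 0.000815 from limma), which passed the p limit and not the fold limit. After cyclic loess it was −0.07 (adjusted p = 0.760), so this difference depended on the scaling between arrays.

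Within the group at 48 h, rat 5 was the lowest rat in 5 of the 6 genes, the exception being Atp1b1, and it was the lowest of all 10 rats in the same 5. Its array median was 5.21, against 5.17 to 5.19 in the other rats at 48 h, its 99th percentile (9.97) lay within their range, and its fibre-marker median (8.06) lay above that of rat 2 (7.55). Without rat 5 at 48 h the changes were −0.04 for Scn4a, −0.73 for Scn4b, −1.16 for Clcn1, 0.28 for Atp1b2 and −0.69 for Fxyd1.

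Since the scaling between arrays moved several of these changes, genes were also compared within each array, where a shift shared by all genes cancels. A shift that differs between genes, for example with their signal level, does not cancel. The question was whether partners of a channel or pump changed unequally. In 11 comparisons (two-sided exact permutation test over all splits of the rats, adjusted over the 11), 9 had an adjusted p under 0.05. The smallest p that 5 rats against 5 allow is 0.00794.

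Clcn1 lay lower relative to Scn4a at 48 h. The difference Clcn1 minus Scn4a was 0.93, 0.32, 0.28, 0.00 and 0.15 at 0 h and −0.86, −0.66, −1.15, −0.47 and −0.95 at 48 h (log2, rats 1 to 5 of each group). It was lower in 5 of 5 rats at 48 h than in any rat at 0 h, with a change of −1.15 (exact permutation p = 0.00794, adjusted p = 0.0125). For the sodium channel subunits, Scn4a minus Scn4b was higher in 5 of 5 rats at 48 h, by 0.62 (exact permutation p = 0.00794, adjusted p = 0.0125). Here the groups came close, at 0.27 in rat 4 at 0 h and 0.34 in rat 5 at 48 h. In the pump, Fxyd1 minus Atp1b2 was lower in 5 of 5 rats at 48 h, by a change of −0.89 (exact permutation p = 0.00794, adjusted p = 0.0125). These 3 differences kept their direction and their side of the threshold after cyclic loess. With medians in place of means they kept their direction at an adjusted p of 0.0582, where the smallest unadjusted p that this exact permutation test can give is 0.0476.

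The beta subunit genes gave no call with all rats. Atp1b1 minus Atp1b2 changed by −1.24 (exact permutation p = 0.127, adjusted p = 0.140), and its values at 0 h ran from −6.72 in rat 1 to −2.85 in rat 5. Without rat 1 at 0 h the change was −1.87 (adjusted p = 0.0175 by the exact permutation test). Fxyd1 minus Atp1b1 changed by 0.34 (exact permutation p = 0.738, adjusted p = 0.738), and by 1.0 without that rat (adjusted p = 0.0175 by the exact permutation test).

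Whether the 6 genes lay higher at 48 h relative to fibre markers depended on the markers taken, and Atp1b2 alone kept its call with each marker list tried. The general fibre markers, among them Ckm, the muscle creatine kinase, and Des, the intermediate filament desmin, fell in 7 of 9 measured, with a median change of −2.29 (log2). Their median per array was 11.02 to 11.44 at 0 h and 7.55 to 9.65 at 48 h. Relative to the median of these 9, Atp1b2 was higher at 48 h by 2.75, Scn4a by 2.35, Fxyd1 by 1.86 and Scn4b by 1.72, each in 5 of 5 rats (exact permutation p = 0.00794, adjusted p = 0.0125). Atp1b1 was higher by 1.52 and Clcn1 by 1.19, each in 4 of 5 rats above all rats at 0 h (exact permutation p = 0.0159, adjusted p = 0.0194). After cyclic loess the value for Atp1b1 was 1.10 (adjusted p = 0.0786, exact permutation test). The markers themselves varied, from −3.68 in Mybpc1 to 0.44 in Casq1. On most arrays the median was the value of Mb or of Des, which changed by −2.66 and −2.76, so these differences rest largely on those genes. Without Mb, Clcn1 was at 0.52 (adjusted p = 0.175) and Atp1b1 at 0.85 (adjusted p = 0.314), while the other 4 genes kept their calls at 1.05 to 2.08 (exact permutation test).

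Markers of fast fibres, such as the myosin Myh4 and the actinin Actn3, lay lower by less, with 6 of 10 fallen, a median change of −1.41 and a median per array of 12.59 to 12.85 at 0 h and 10.66 to 12.04 at 48 h. Relative to the fast-fibre median, Atp1b2 was higher at 48 h in 5 of 5 rats, by 1.29 (exact permutation p = 0.00794, adjusted p = 0.0218). No other gene passed the threshold there. Scn4a was at 0.88 (adjusted p = 0.0524), Fxyd1 at 0.40 (adjusted p = 0.0728) and Scn4b at 0.26 (adjusted p = 0.524, exact permutation test for all). Atp1b1 was at 0.05 (adjusted p = 0.976) and Clcn1 at −0.27 (adjusted p = 0.524, exact permutation test for both), the sign of Clcn1 being opposite to that with the general markers. Both of these marker settings were chosen after seeing the data.

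**Figure D3:**
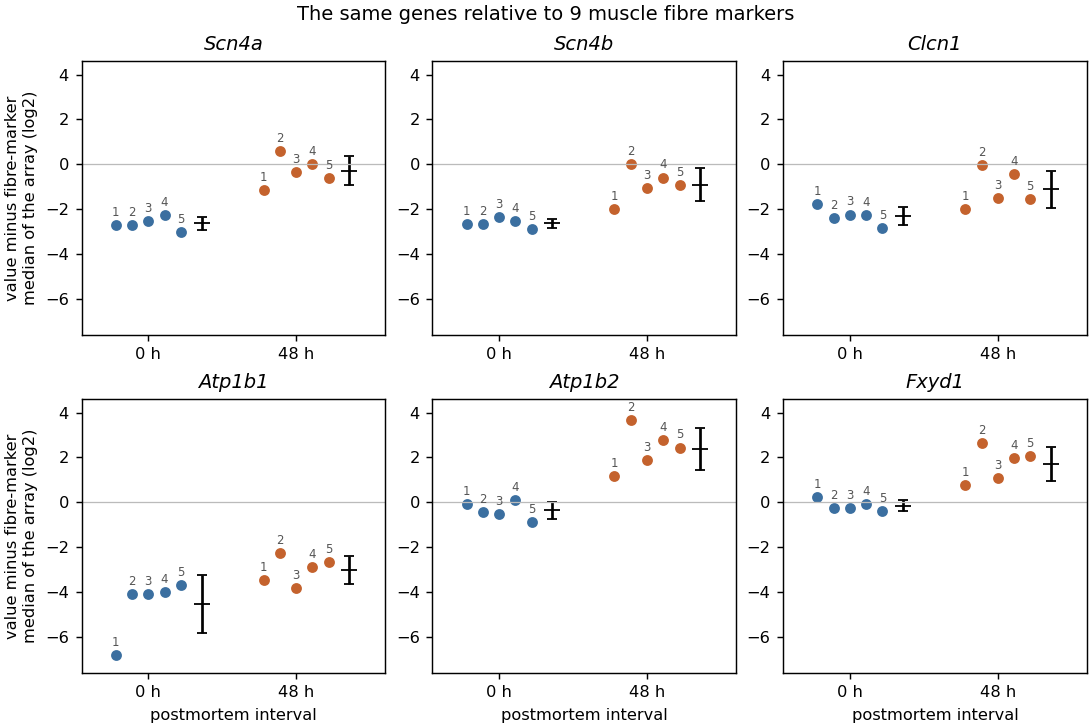
Value of each gene minus the median of 9 muscle fibre markers on the same array (log2, vertical axis) in rats at 0 h (blue) and 48 h (orange). Numbers are rat numbers and black bars are the mean ± SD (n = 5). All 5 rats at 48 h lie above all rats at 0 h for Scn4a, Scn4b, Atp1b2 and Fxyd1, and 4 of 5 do for Clcn1 and Atp1b1, whereas with fast-fibre markers in place of these 9 only Atp1b2 keeps all 5 above and Clcn1 changes sign (−0.27).

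Genes related to these 6 in function were taken from 6 further lists, of which 52 of 69 genes were measured. Of these 52, 12 fell, none rose and 40 did not meet both limits, where 12.1% of all probe sets fell and 4.35% rose. The counts in each list below stand beside those same shares, and no test of a list was made. No other sodium channel subunit fell or rose (9 measured, median change 0.29), among them Scn2b at 0.53 (adjusted p = 0.0331) and Scn3b at −0.35 (adjusted p = 0.258, limma for both). Of 9 other CLC genes and partners none fell or rose (median 0.06), with the endosomal exchanger Clcn3 at −0.90 (adjusted p = 0.00337 from limma), past the fold limit without rat 1 at 0 h or without rat 2 at 48 h (−1.02 in both cases). Ostm1, the partner of the lysosomal chloride transporter, was at 0.00 (adjusted p = 0.995).

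Of 8 other pump subunits and FXYD genes, 1 fell and none rose (median 0.25). This was Atp1b4, a muscle relative of the beta subunits that in placental mammals is known as a protein of the nuclear membrane and not of the pump. It was 7.22 to 8.58 at 0 h and 4.25 to 7.11 at 48 h without overlap, a change of −2.21 (SE 0.39, adjusted p = 0.000212 from limma). The widely expressed Atp1b3 changed by −0.15 (adjusted p = 0.473), or by 0.39 after cyclic loess, and Fxyd7 by 0.08 (adjusted p = 0.717).

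Potassium conductances of the fibre membrane fell in 4 of 10 and rose in none (median −0.82). Kcnma1, the calcium-activated potassium channel, changed by −1.94 (adjusted p = 9.37e-07 from limma). Kcnj11, the pore of the ATP-sensitive channel, changed by −1.73 (adjusted p = 0.000544), and its regulatory partner Abcc9 by −0.18 (adjusted p = 0.342), or 0.45 after cyclic loess. The delayed rectifier Kcnc4 changed by −1.72 (adjusted p = 6.83e-05) and the inward rectifier Kcnj12 by −1.71 (adjusted p = 2.71e-06). Kcnn3, a small-conductance calcium-activated channel, was at −0.88 (adjusted p = 0.00116), and past the fold limit without rat 2 at 48 h (−1.04).

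Exchangers and cotransporters fell in 3 of 10 and rose in none (median 0.13). The bicarbonate cotransporter Slc4a4 changed by −1.14 (adjusted p = 0.000378 from limma) and the sodium-potassium-chloride cotransporter Slc12a2 by −1.12 (adjusted p = 0.000172), which lost its call after cyclic loess (−0.71), while the calcium pump Atp2b3 was at −1.01 (adjusted p = 0.00608) and lost its call when any of 6 rats was left out, at −0.98 to −0.87. Its relative Atp2b1 was at 0.38 (adjusted p = 0.0615), which passed both limits after cyclic loess (1.01) and turned to −0.14 with olfactory receptor centring. The sodium-calcium exchanger Slc8a3 was at −0.91 (adjusted p = 0.000704), and past the fold limit without rat 3 at 48 h (−1.02).

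Anchors of channels in the membrane skeleton fell in 4 of 6 and rose in none (median −1.36). Sptb, the erythroid and muscle beta-spectrin, was 7.30 to 7.63 at 0 h and 4.57 to 5.67 at 48 h, a change of −2.29 (SE 0.20, adjusted p = 1.15e-07 from limma). Dmd, which encodes dystrophin, changed by −1.65 (adjusted p = 4.73e-07), and Ank3, the ankyrin that tethers sodium channels, by −1.52 (adjusted p = 9.81e-06), under the fold limit after cyclic loess (−0.94). The syntrophin Sntb1 changed by −1.20 (adjusted p = 0.0144) with overlapping groups, and lost its call without rat 3 at 0 h (−0.92) or rat 2 at 48 h (−0.96), after cyclic loess (−0.98) and without variance moderation (adjusted p = 0.0891). Sptan1 was at 0.87 (adjusted p = 0.00258), past the fold limit without rat 4 at 48 h (1.05) and after cyclic loess (1.16), and Sntb2 was at 0.52 (adjusted p = 0.122).

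**Figure D4:**
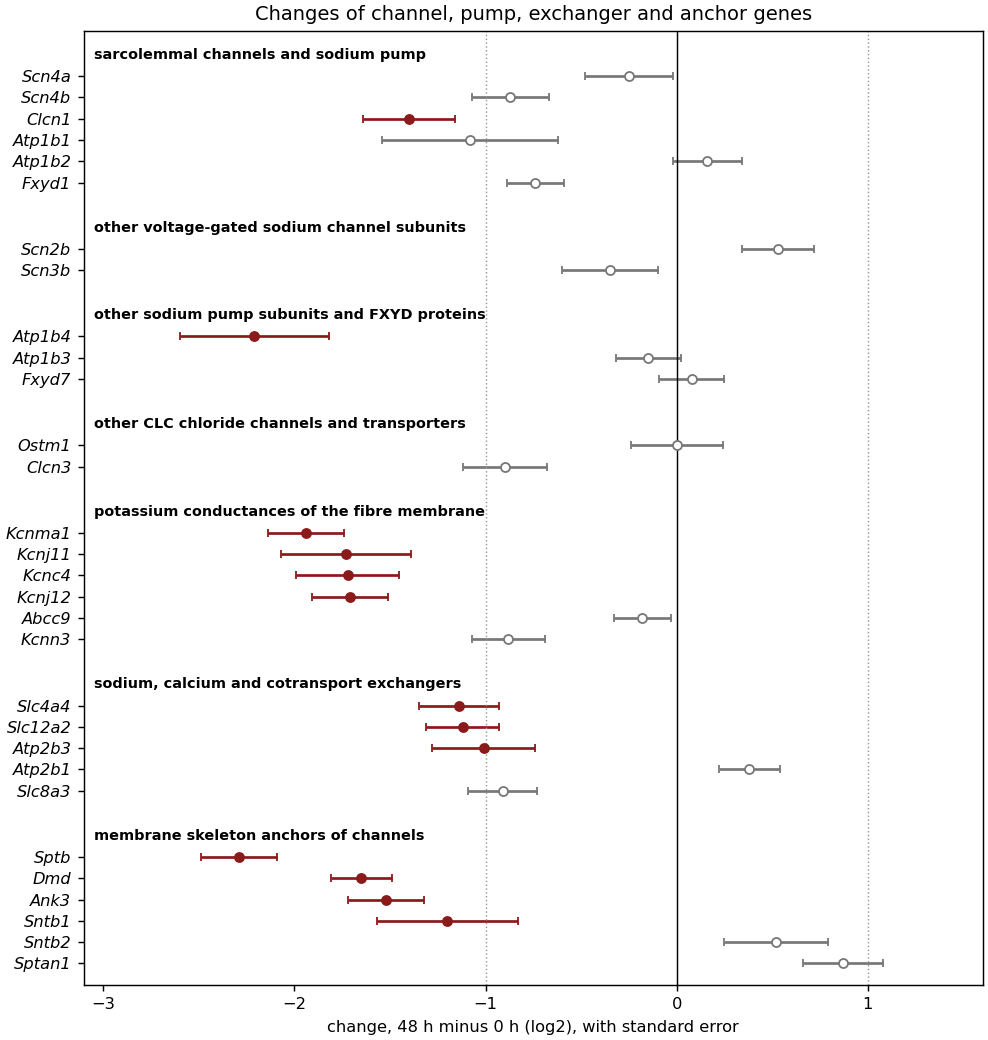
Change at 48 h against 0 h (log2, horizontal axis) with its standard error for the 6 genes and for named genes of 6 related lists. Filled red points met both limits and open grey points did not. Dotted lines mark a 2-fold change. The 13 filled points, from Clcn1 to Sptb, all lie left of 0.

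The genes closest in pattern to each of the 6 were found as those with the smallest root mean square difference over the 10 arrays after each gene was centred on its own mean at 0 h. For Fxyd1 these were Acta1 (difference 0.09 log2), which encodes skeletal alpha-actin, Cyp20a1 (0.102) and St13 (0.112). For Atp1b1 they were Ldhb (0.412), the lactate dehydrogenase subunit of oxidative tissue, Mtfp1 (0.585) and Eci2 (0.624), the least close of the 6 sets. For Clcn1 they were Rab10 (0.18), Best3 (0.248) and Cox6a2 (0.253), the last a muscle subunit of cytochrome c oxidase. For Scn4a they were Pxmp2 (0.136), Masp1 (0.163) and Il6r (0.174), for Scn4b Timm22 (0.149), Adipor2 (0.169) and Abcf3 (0.177), and for Atp1b2 Adad1 (0.104), Pms1 (0.113) and Rtn4 (0.124). After cyclic loess, 6 of these 18 genes were again among the nearest 3.

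Other cell types in muscle carry sodium pumps too, and their markers were followed as well, as the median per array at 0 h and at 48 h. Endothelial markers rose in 6 of 9, with a median per array of 6.57 to 7.13 at 0 h and 7.54 to 8.49 at 48 h. Smooth muscle and pericyte markers rose in 1 of 8 (7.42 to 8.20 and 8.22 to 9.11), and erythroid markers in 4 of 5 (5.08 to 6.28 and 7.20 to 8.02). Fibroblast markers fell in 5 of 6 (10.06 to 10.74 and 9.0 to 9.39), nerve and Schwann cell markers rose in 1 of 7 (4.94 to 5.34 and 5.33 to 5.70), adipocyte markers rose in 1 of 5 (4.21 to 6.84 and 4.61 to 5.43), and leukocyte markers fell in 1 of 7 (3.86 to 4.22 and 3.90 to 4.46). No defining marker can be read as at 0 on this scale, and the part of these cells in the values of the 6 genes was not tested.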

How the data were processed

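Per the labels, total RNA was amplified and labelled with biotin. The authors deposited log2 values from RMA, and the submitters' processing notes name Transcriptome Analysis Console 4.0 and rn6. RMA background-corrects, quantile-normalizes and summarises each probe set. Of 24834 probe sets, 1646 controls were left out. Symbols come from the platform's table, updated through gene identifiers to GRCr8. Genes of several probe sets used that with the highest mean. Groups were compared with limma 3.58.1 in R 4.3.3 (lmFit and eBayes, two-sided, 8 residual and 8.99 prior degrees of freedom), and the code was tested on simulated data. Within-array differences used Python 3.11.15 and figures matplotlib 3.10.9. The number of arrays limits the precision. P-values set the difference between the groups against the spread between these rats, and do not cover what all rats of a group shared.

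The genes, lists and tests were chosen with earlier results of these data known. In each list the named genes are up to 4 called genes per direction, ordered by size, and the 2 uncalled ones with the highest mean. Markers and nearest genes are named as examples. Alternatives were cyclic loess, centring on 33 olfactory receptor or 4 Bacillus control probe sets, other variance moderation, a level filter, array weights, a replicate block and leaving out each rat. Some planned comparisons are not reported here.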

Additional observations from a re-analysis of the deposited data

Results flagged for a closer look

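Atp1b1 in rat 1 at 0 h (4.21, log2) stood apart from the rest of its group, with a gap to the nearest rat of 0.794 of the group's whole range, against a Dixon critical value of 0.71 for 5 samples. Of 32 groups looked at (6 genes and 10 marker lists at each time), 3 were picked out in this way, where chance gives about 1 in 20. The other two were marker lists in rat 1 at 48 h: the median of the nerve and Schwann cell markers (5.33, 0.737 of the range) and that of the adipocyte markers (4.61, 0.853 of the range). Background probe sets, which enter no comparison, had a median per array that averaged 3.10 (SD 0.0464) in the 0 h rats and 3.69 (SD 0.119) in the 48 h rats, n = 5 each on the log2 scale, with no overlap between the times.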

How the results depend on the processing

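Results followed the scaling between arrays. The median change of all probe sets was 0.10 as deposited, 0.01 after cyclic loess, −0.42 with olfactory receptor centring and −1.97 with Bacillus control centring. After cyclic loess Scn4a was at 0.34, Clcn1 at −0.83 (not called, leaving 0 of the 6 genes), Atp1b3 at 0.39 and Abcc9 at 0.45, and 1 pump or FXYD gene, 3 exchangers and 1 anchor were higher and 2 anchors lower. The nearest genes shared were 6 of 18. With olfactory receptor centring Scn4b (−1.39), Atp1b1 (−1.60) and Fxyd1 (−1.26) were also called, making 4 of the 6, Atp1b2 was at −0.36, Fxyd7 at −0.43, Ostm1 at −0.52 and Atp2b1 at −0.14, and 2 CLC and 8 potassium genes were called lower. Over all probe sets 5396 were lower and 172 higher, against 2811 and 1009 (96.9% and 73.6% lower; 61.1% after cyclic loess). With Bacillus centring all 6 genes were called lower, Scn4a at −2.32, Scn4b −2.94, Atp1b1 −3.15, Atp1b2 −1.91 and Fxyd1 −2.81, as were 22407 probe sets and 0 higher, and all genes measured in the sodium channel (9), pump (8), CLC (9), potassium (10) and exchanger (10) lists. Scn2b (−1.54), Fxyd7 (−1.99), Ostm1 (−2.07), Atp2b1 (−1.69), Sntb2 (−1.55) and Sptan1 (−1.20) turned negative. With only the 11594 probe sets above the median level tested, 534 were called higher and 2629 lower. Array weights gave Ostm1 −0.13. For these changes the cause was not tested.

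With medians in place of means, the 9 differences past the threshold kept their direction. All had an adjusted p of 0.0582 (exact permutation test), which says nothing about stability, since 0.0476 is the smallest unadjusted p this test can give and all 9 reached it. They were at 0.64 for Scn4a minus Scn4b, −1.13 for Clcn1 minus Scn4a, −1.02 for Fxyd1 minus Atp1b2 and, relative to fibre markers, 2.34 for Scn4a, 1.73 for Scn4b, 0.75 for Clcn1, 1.18 for Atp1b1, 2.86 for Atp1b2 and 2.23 for Fxyd1. After cyclic loess Atp1b1 relative to fibre markers was at 1.10. With fast-fibre in place of fibre markers, chosen after seeing the data, Scn4a (0.88), Scn4b (0.26), Atp1b1 (0.05) and Fxyd1 (0.40) lost their call and Clcn1 turned to −0.27, and with Mb left out Clcn1 (0.52) and Atp1b1 (0.85) lost theirs.

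Leaving out each rat gave −1.69 to −0.81 for Atp1b1, −1.02 to −0.73 for Scn4b, −1.87 to −0.90 for Atp1b1 minus Atp1b2 and 0.07 to 1.0 for Fxyd1 minus Atp1b1. Called lower were 1 to 2 of the 6 genes and 0 to 1 CLC genes, and called higher were 0 to 1 in each of the pump, exchanger and anchor lists. Ostm1 ran from −0.16 to 0.16, at −0.09 without rat 1 and 0.00 without rat 5 at 0 h, and −0.16 without rat 2 and −0.15 without rat 4 at 48 h.

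By design the groups hold different animals, so rat numbers do not pair them. The correlation of deviations between rats of the same number was −0.00416 to 0.0761, and 3 of 5 rats at 0 h correlated best with their own number. Whether arrays of the same number shared a handling step was not tested. With rat number as a replicate block Atp1b1 was at −1.08 (adjusted p = 0.0464 from limma), so that 2 of the 6 genes were called. Each of the 6 genes had 1 probe set, so no alternative probe set could be tried. The number of arrays and signal near background limit the dimmer genes.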
